A study of Rattus norvegicus with 6 samples.

Results

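The endothelin system comprises 7 genes, which encode the 3 endothelin peptides (Edn1, Edn2, Edn3), their 2 receptors (Ednra, Ednrb) and the 2 enzymes that cut the peptide precursors to their active form (Ece1, Ece2). They were picked out by gene name from 29468 gene symbols measured by RNA-seq in rat Schwann cell preparations. SCPs and RSCs were compared, with 3 samples each. Schwann cell precursors (SCPs) came from the sciatic nerves and brachial plexus of untreated wild-type LEWIS rat embryos at embryonic day 14. Repair Schwann cells (RSCs) came from sciatic nerves of wild-type LEWIS rats of 10 weeks, taken from the segment distal to a cut 1 week earlier. All nerves were dissociated with enzymes, with a stronger and longer collagenase digestion for RSCs, and cells that stuck to uncoated flasks, such as fibroblasts and macrophages, were then discarded. The cells were not sorted by a marker in the stated methods. By immunolabelling of cultured cells, the study found the Schwann cell marker Sox10 in most cells of both preparations. The labels give wild type, whereas the methods describe cells for grafting from transgenic LEWIS rats with a red fluorescent protein and do not name another source for the RNA. The contrast joins stage, injury and nerve, which cannot be told apart. The study's methods speak of 3 sets of cells per group, and neither they nor the labels say whether these came from separate animals, so the p-values measure the spread between these samples.

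Endothelins are secreted peptides that act on G protein-coupled receptors. Edn1 is best known as a vasoconstrictor made by endothelial cells, and Ednra as its receptor on smooth muscle. Edn3 and Ednrb form the pair that neural crest cells need to give rise to enteric neurons and melanocytes, and endothelin signalling through Ednrb is known to slow the step from Schwann cell precursor to Schwann cell.

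Measured at their gene loci, both receptors were lower and Edn3 and both converting enzymes were higher in RSCs than in SCPs. Ednrb was 18.2-fold and Ednra 13.9-fold lower in RSCs, Edn3 was 5.55-fold higher and Ece1 was 1.81-fold higher. Ece2 was near 0 in SCPs and between 3.88 and 6.35 FPKM in RSCs. Edn1 did not pass the test, and Edn2 was listed at 0 in every sample. FPKM, the unit of these levels, counts sequenced fragments per length of transcript and per number of mapped fragments, so levels can be compared between genes.

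These results depend on which transcripts were counted. Each sample was assembled on its own, and its table holds reference transcripts that carry a gene name and assembled transcripts that carry none. Summed over the named transcripts alone, as the choice by name prescribes, Edn3 was listed at 0 in all 6 samples, Ednrb at 0 in SCP 2, RSC 1 and RSC 3, and Ece1 at 0 in SCP 1 and RSC 2. At the same loci lay 10 unnamed transcripts of Edn3, 9 of Ednrb and 9 of Ece1 over the 6 samples. They held 100% of the Edn3 total in each sample, 75.2% to 100% of the Ednrb total and 55.8% to 100% of the Ece1 total. Ednra and Ece2 had none, and Edn1 had them in SCP 3 and RSC 2. A 0 among named transcripts was therefore no sign of missing RNA for these genes. Below, the locus total is the sum of the named transcripts and of the unnamed ones that overlap them at the same locus. For the members, the named sum is given beside it. Of the 14020 genes tested on locus totals, 42.7% had more than 50% of their total in unnamed transcripts in at least 1 sample.

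**Figure D1:**
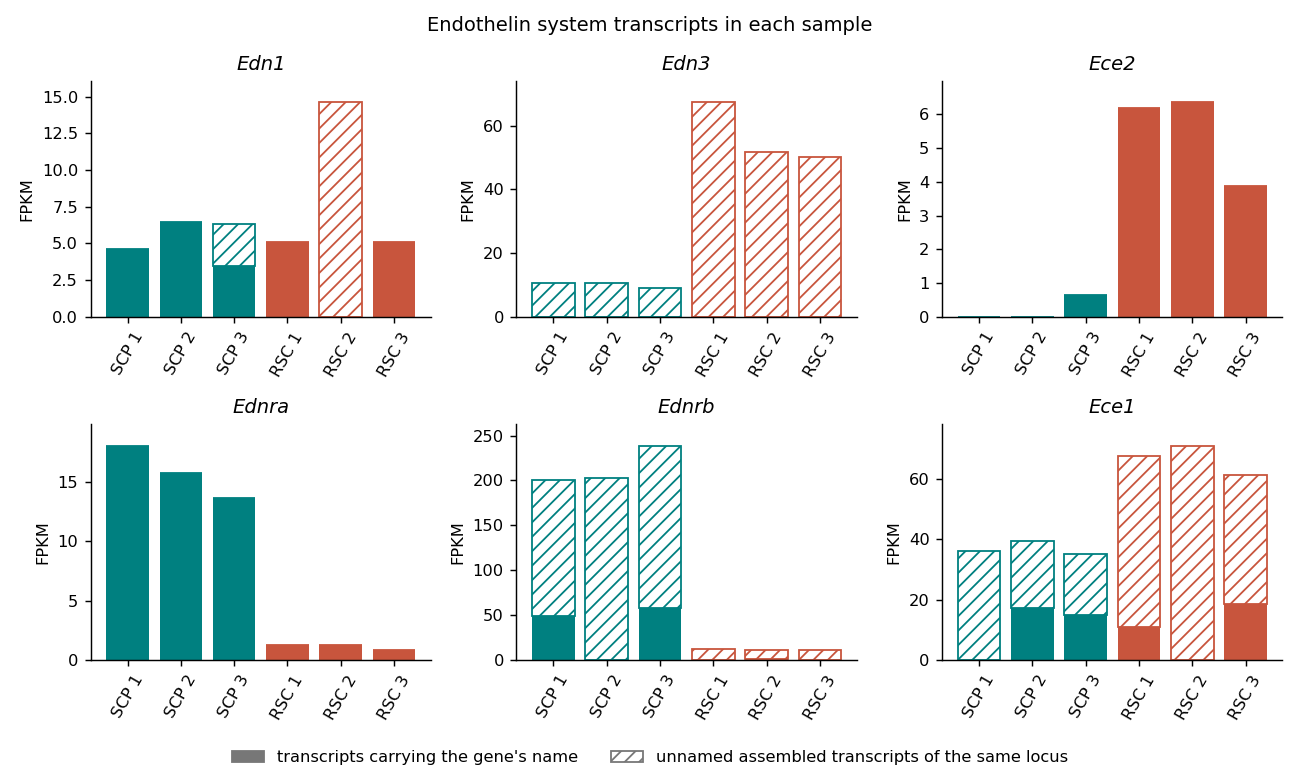
Levels of 6 genes of the endothelin system in each sample, in FPKM (linear axes from 0, a different range in each panel). Filled bars are transcripts that carry the gene's name and hatched bars are unnamed transcripts of the same locus. The hatched part makes up the whole of Edn3 in all samples and of Ednrb in SCP 2, and the filled part alone would place Ednrb at 0 in a sample with 203 FPKM.

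With a threshold of p under 0.01 in limma on log2(FPKM + 1), 5 of the 6 members tested on locus totals were called, 3 higher in RSCs and 2 higher in SCPs. Over all genes, 57.3% were called by the same rule, 23.2% higher in RSCs and 34.1% higher in SCPs, so the members' count lies near a background in which most genes differ. The size of the changes can be read against the genes that were also over 4-fold on that scale. Of all genes, 8.57% were over 4-fold higher in RSCs, among them Edn3 and Ece2. A further 4.58% were over 4-fold higher in SCPs, among them Ednra and Ednrb. On named sums, 5 members could be tested and 2 were called, Ednra and Ece2, against 40.5% of 13003 genes. The median difference over all genes was -0.24 on locus totals and -0.17 on named sums.

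**Figure D2:**
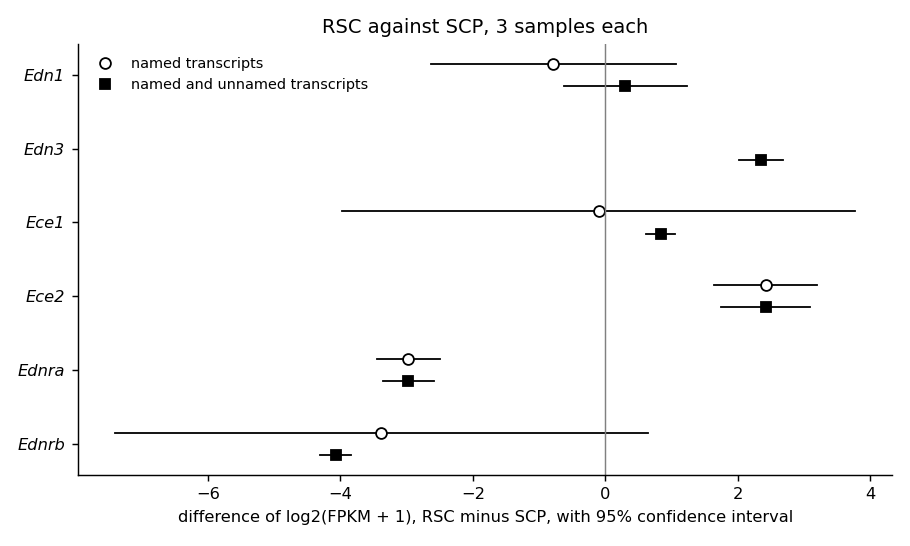
Differences of log2(FPKM + 1), RSC minus SCP, with 95% confidence intervals from limma, for the members that could be tested (3 samples each). Open circles are named sums and filled squares are locus totals. The interval of Ednrb runs from -7.41 to 0.64 on named sums and from -4.30 to -3.84 on locus totals, and Edn3 could be tested on locus totals only.

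Both receptors were lower in RSCs. Ednrb is encoded at chr15:88004775-88036354 of rn6. Its locus total was 200 FPKM in SCP 1, 203 in SCP 2 and 239 in SCP 3, and 12.2, 11.8 and 11.1 FPKM in RSC 1, 2 and 3. The groups lay far apart, with 12.2 FPKM as the highest RSC value and 200 FPKM as the lowest SCP value. The fitted difference was -4.07 (SE 0.096, adjusted p = 1.2e-06). In SCPs the mean of 214 ± 21.5 FPKM (SD, n = 3) stood at the 97.4th percentile of the genes tested, and in RSCs the mean of 11.7 ± 0.547 FPKM (SD, n = 3) stood at the 53.5th. The named sum was 49.6, 0 and 57.9 FPKM in SCPs and 0, 1.62 and 0 FPKM in RSCs, and on it the gene did not pass the test (-3.38, SE 1.64, adjusted p = 0.14 in limma). Without SCP 2 the named sum did pass, at -5.31. The SCP values of the named sum came from a transcript of 2012 bases that Cufflinks marked LOWDATA, for low data, in every sample. They are also part of the locus totals of SCP 1 and SCP 3. The unnamed Ednrb transcripts were 4048 to 4426 bases long. Their left ends, which are the 3′ ends on this gene's strand, lay within 4 bases of that of the longer named transcript, which has 4477 bases. Their right ends lay at -736 to 230 bases from the right-most named end.

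Ednra is encoded at chr19:33928190-33991703 of rn6 and had 4 named transcripts. Its level was 18.0, 15.8 and 13.7 FPKM in SCP 1, 2 and 3, and 1.28, 1.29 and 0.850 FPKM in RSC 1, 2 and 3. The groups did not overlap, and the RSC values lay close to 1 FPKM, where the added 1 in the log shrinks a difference. The fitted difference was -2.97 (SE 0.16, adjusted p = 1.6e-05). In SCPs the highest of its transcripts, of 4761 bases, held 12.8, 7.48 and 9.34 FPKM, and one of 4595 bases held 5.22, 4.59 and 4.33 FPKM. A transcript of 4468 bases held 3.70 FPKM in SCP 2 and was listed at 0 in the other SCP samples. In RSCs the transcript of 4761 bases held 1.28 FPKM in RSC 1, 0.650 in RSC 2 and 0 in RSC 3, that of 4468 bases held 0, 0.641 and 0.850 FPKM, and that of 4595 bases was listed at 0 in all 3 samples. Cufflinks' upper bounds for the transcript of 4595 bases there were 0.0951, 0.0865 and 0.0917 FPKM. Because cells were not separated by type, fewer cells of a type and less RNA per cell cannot be told apart here or in the results below.

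Ednrb was the main receptor in both groups. It made up 91.7%, 92.8% and 94.6% of the receptor total in SCPs and 90.5%, 90.1% and 92.9% in RSCs. These shares overlapped, and the means of 93.0% and 91.2% gave p = 0.30 in an exact two-sided permutation test. With 3 samples against 3, such a test cannot give a p below 0.10. The ratio of Ednra to Ednrb, as log2 of FPKM + 1, was -3.68 ± 0.32 in SCPs and -2.58 ± 0.12 in RSCs (SD, n = 3), without overlap, and the difference of 1.10 reached the smallest p of 0.10 (exact permutation test). The plain ratio of Ednrb to Ednra, without an added 1, ran from 11.1 to 17.5 in SCPs and from 9.16 to 13.1 in RSCs and overlapped. The groups were thus apart on the logged ratio but not on the plain one. With 0.1 added in place of 1, the difference of the logged ratio was 0.48 (p = 0.20, exact permutation test). The receptor total was 218, 219 and 252 FPKM in SCPs and 13.5, 13.1 and 12.0 FPKM in RSCs.

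The 250 bases before the start of both receptor genes are shown because the genes were the pair of members lower in RSCs. They are RefSeq sequences on GRCr8, 5′ to 3′ on the gene's strand, and were not matched to a particular transcript measured here. Capitals would mark any match, on either strand, to 6 motifs searched: TATAAA for the TATA box, CCAAT for the CCAAT box, GGGCGG for the GC box, TGANTCA for AP-1 factors, AGATAA for GATA factors and AACAAT for SOX factors.
Ednra (chr19:47137674-47137923, strand +): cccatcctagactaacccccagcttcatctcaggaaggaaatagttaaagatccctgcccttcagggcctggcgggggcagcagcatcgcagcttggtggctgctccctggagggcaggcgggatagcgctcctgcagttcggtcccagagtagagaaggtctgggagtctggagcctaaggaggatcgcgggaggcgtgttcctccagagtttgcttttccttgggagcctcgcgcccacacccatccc
Ednrb (chr15:87086766-87087015, strand -): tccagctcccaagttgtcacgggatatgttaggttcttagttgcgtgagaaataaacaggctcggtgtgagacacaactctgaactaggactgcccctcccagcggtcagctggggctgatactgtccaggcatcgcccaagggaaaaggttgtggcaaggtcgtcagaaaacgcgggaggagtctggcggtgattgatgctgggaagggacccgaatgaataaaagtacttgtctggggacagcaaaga
Neither stretch held a match to any of the 6. Among 33469 promoters of the same length, the share with a match was 12.9% for TATAAA, 34.0% for CCAAT, 30.5% for GGGCGG, 6.34% for TGANTCA, 10.3% for AGATAA and 10.3% for AACAAT. GC content was 61.2% for Ednra and 53.2% for Ednrb, and the median of all promoters was 51.2%. RefSeq held a promoter for 6 of the 7 members, and none was matched for Edn3.

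Of the ligands, Edn3 was the most abundant in both groups. Its named transcript lies at chr3:172856730-172879276 of rn6 and has 737 bases. The locus total was 10.6, 10.7 and 9.12 FPKM in SCP 1, 2 and 3, and 67.3, 51.8 and 50.2 FPKM in RSC 1, 2 and 3. All 3 RSC samples were above all SCP samples. The fitted difference was 2.35 (SE 0.14, adjusted p = 2.2e-05), from 10.2 ± 0.904 to 56.4 ± 9.45 FPKM (SD, n = 3). All of it came from unnamed transcripts of 1792 to 2861 bases that reached 1170 to 1961 bases past the right-hand end of the named one. They thus shared its locus, but exons that fall outside the named transcript cannot be assigned from these tables. For the named transcript itself Cufflinks gave 0 FPKM with an upper bound of 0.594 to 0.769 FPKM. It was marked LOWDATA in every sample, so this 0 and its bound are uncertain.

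Edn1 lies at chr17:22137324-22143324 of rn6. Its locus total was 4.62, 6.47 and 6.33 FPKM in SCPs and 5.07, 14.6 and 5.09 FPKM in RSCs. The groups overlapped, and RSC 2 stood apart from the other 5 samples. In RSC 2 the named transcript was listed at 0 and the total was the sum of a left-hand piece of 1404 bases with 7.92 FPKM and a right-hand piece of 739 bases with 6.68 FPKM. A sum over pieces that each cover part of a gene exceeds the level of a whole transcript. The fitted difference was 0.30 (SE 0.39, adjusted p = 0.51 in limma, 95% confidence interval -0.63 to 1.23), and without RSC 2 it was -0.15. On named sums, with RSC 2 at 0, it was -0.78 (SE 0.75). Neither fit showed a difference, and the interval still holds changes of over 2-fold on this scale.

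Edn2, at chr5:139100898-139105792 of rn6, was listed at 0 in all 6 samples with no unnamed transcript, and it was not tested. The ligand total was therefore Edn1 plus Edn3, with 15.3, 17.2 and 15.4 FPKM in SCPs and 72.4, 66.4 and 55.3 FPKM in RSCs. On a log2(FPKM + 1) scale it differed by 1.95, at the smallest p of 0.10 (exact permutation test). Edn3 made up 69.7%, 62.4% and 59.1% of it in SCPs and 93.0%, 78.0% and 90.8% in RSCs. On named sums the ligand total held Edn1 alone and its difference was -0.78 (p = 0.70, exact permutation test).

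Edn3 and Ednrb thus moved in opposite directions. The ratio of Edn3 to Ednrb was 0.0532, 0.0529 and 0.0382 in SCPs and 5.51, 4.38 and 4.51 in RSCs. In SCPs receptor transcripts outnumbered those of their ligand, and in RSCs the order was turned, in all 3 samples of each group (p = 0.10, exact permutation test, the smallest possible).

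**Figure D3:**
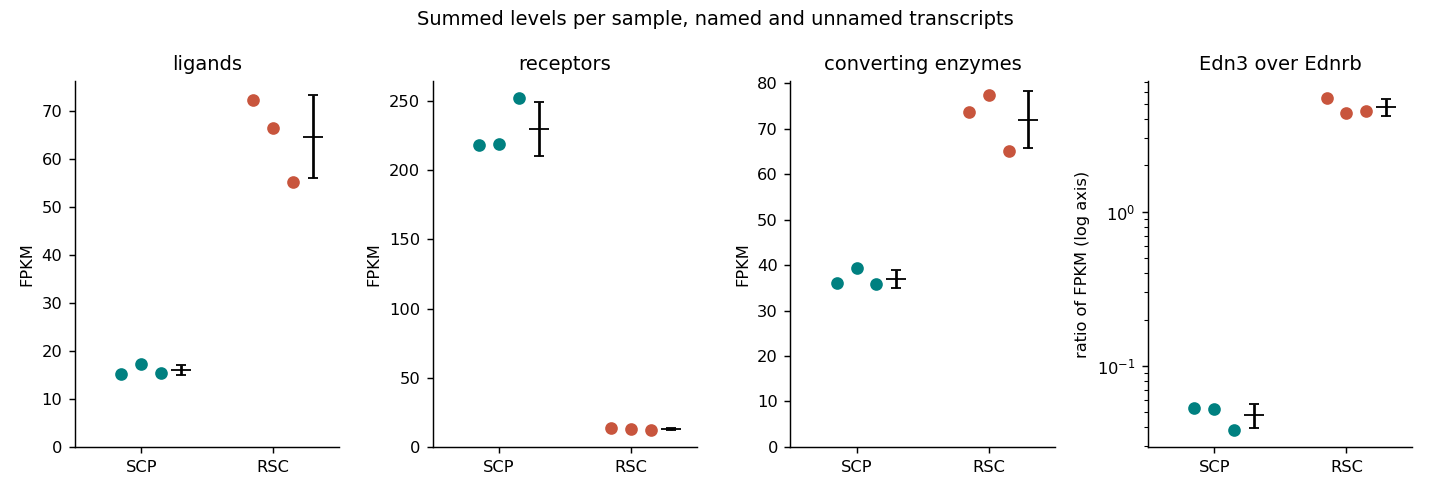
Sums of the 3 ligands, the 2 receptors and the 2 converting enzymes in FPKM (linear axes from 0), and the ratio of Edn3 to Ednrb (log axis), on locus totals. Points are samples, and the bars beside them are the mean and SD of 3. The receptor total falls from 218 to 252 FPKM in SCPs to 12.0 to 13.5 FPKM in RSCs, while the ligand and enzyme totals are higher in every RSC sample.

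The converting enzymes were both higher in RSCs. Ece1, a membrane-bound metalloprotease that cleaves the endothelin precursors, lies at chr5:156215469-156325391 of rn6. Its locus total was 36.0, 39.4 and 35.2 FPKM in SCP 1, 2 and 3, and 67.5, 71.1 and 61.2 FPKM in RSC 1, 2 and 3. The groups did not overlap, and the fitted difference was 0.84 (SE 0.090, adjusted p = 2.7e-04). On named sums the values were 0, 17.4 and 14.8 FPKM in SCPs and 11.1, 0 and 18.8 FPKM in RSCs, which overlapped (-0.10, SE 1.58, adjusted p = 0.97 in limma). Both sums of SCP 2 and SCP 3 include 8.21 and 8.44 FPKM of a transcript of 2784 bases marked LOWDATA. The unnamed transcripts began 30 to 163 bases before the left end of one named Ece1 transcript, and those longest in the genome ended where another ends, so neither named form described them.

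Ece2, a related metalloprotease known mostly from neural tissue, lies at chr11:83948896-83985422 of rn6 and had no unnamed transcripts. It was listed at 0 in SCP 1 and SCP 2, at 0.661 FPKM in SCP 3, and at 6.19, 6.35 and 3.88 FPKM in RSC 1, 2 and 3. All RSC samples were above all SCP samples, and the fitted difference was 2.43 (SE 0.28, adjusted p = 3.8e-04). No fold is given against values at 0. The 4 named transcripts of Ece2 shared this level differently among the RSC samples. The transcript of 2997 bases led in RSC 1 with 5.28 and in RSC 3 with 3.02 FPKM, and that of 3010 bases held the whole 6.35 FPKM of RSC 2. Another annotated gene overlaps the Ece2 locus, and reads of both may be shared. The enzyme total was 36.0, 39.4 and 35.8 FPKM in SCPs and 73.7, 77.4 and 65.1 FPKM in RSCs, almost all of it Ece1.

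The 250 bases before the start of the enzyme genes are shown as the pair that was higher in RSCs with RefSeq promoters, in the same form and with the same 6 motifs in capitals. The named transcripts of both genes begin at several places, and these stretches were not matched to any of them.
Ece1 (chr5:155360781-155361030, strand +): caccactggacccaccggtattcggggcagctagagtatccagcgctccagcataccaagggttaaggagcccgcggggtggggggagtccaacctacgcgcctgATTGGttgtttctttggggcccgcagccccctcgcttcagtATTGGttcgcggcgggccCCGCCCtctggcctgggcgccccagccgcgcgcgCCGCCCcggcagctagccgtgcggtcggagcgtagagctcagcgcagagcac
Ece2 (chr11:93782639-93782888, strand -): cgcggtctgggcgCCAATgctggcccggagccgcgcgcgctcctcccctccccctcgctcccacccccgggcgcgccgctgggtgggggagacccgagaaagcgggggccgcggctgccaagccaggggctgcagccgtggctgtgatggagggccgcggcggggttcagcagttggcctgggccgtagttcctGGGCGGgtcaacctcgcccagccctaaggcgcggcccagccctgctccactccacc
Ece1 held 2 CCAAT boxes, 145 and 104 bases before the start, and 2 GC boxes, 86 and 52 bases before it, all on the opposite strand. Ece2 held 1 CCAAT box at 237 and 1 GC box at 56 bases before the start, on its own strand. Both motifs are common, as the shares above show. GC content was 69.2% for Ece1 and 76.4% for Ece2, higher than for both receptors.

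The genes whose centred profile over the 6 samples lay closest to each member were found by the root mean square of the differences in log2(FPKM + 1). They were Calb2 (0.0654) and Flrt1 (0.0700) for Ednrb, and Tcf7l1 (0.0674) and Cdh4 (0.107) for Ednra. For Edn3 they were Sptbn1 (0.0737) and Arhgap30 (0.0766), and for Edn1 RT1-M6-2 (0.0833) and Helb (0.136). Laptm4a (0.0389) and Itgb1 (0.0449) were closest to Ece1, and Oas1a (0.169) and Ccl9 (0.171) to Ece2. With 6 samples in 2 groups, this likeness reflects mostly the size of the group difference. Calb2, with 15.4 FPKM in SCPs and 0 in RSCs on average, was far lower in level than Ednrb. Itgb1, an integrin subunit, went from 108 to 192 FPKM. On named sums the closest included Rmnd5a (0.145) for Edn1, and they were Cdh4 (0.107) and Raver2 (0.143) for Ednra, and P2rx7 (0.107) and Sat1 (0.147) for Ece2. For Ednrb they were Prkacb (0.887) and Brca1 (1.09), and for Ece1 Wdr24 (0.258) and Esrra (0.340), with the values at 0 in the profile.

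Beyond the 7 members, 69 partner genes of the pathway were examined in 5 lists, of which 63 could be tested on locus totals. Of these, 40 were called, 30 of them higher in RSCs (10 over 4-fold) and 10 higher in SCPs (1 over 4-fold). That is read against 57.3% of all genes called (23.2% on the RSC side, 34.1% on the SCP side), as are the lists below. Over 4-fold, the shares of all genes were 8.57% on the RSC side and 4.58% on the SCP side. The median difference was 0.36, against -0.24 over all genes. On named sums 56 were tested and 17 called, 12 higher in RSCs and 5 higher in SCPs, where 40.5% of all genes were called. The median was 0.38. Of the genes reported below as called on locus totals, Ctsa, Prkca, Grk5, Rgs3, Trpc6, Arhgef11, Mitf, Kit and Nrtn were not called on named sums. Pax3 and Rgs5 were too low on named sums to be tested. The lists differ in what they hold, and the genes named below are among those with the largest called changes of each list on locus totals or, for Cma1, Prkcd, Arrb2, Rhoa and Sox10, on named sums. Furin, Gnaq, Gna11, Mylk and Zeb2 were added for their known roles.

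Of 12 genes that process or clear the peptides, 9 were tested, 5 were higher in RSCs and 1 in SCPs. Pcsk1, a prohormone convertase of neuroendocrine cells, rose from 1.05, 2.99 and 3.62 FPKM in SCPs to 88.2, 64.2 and 74.1 FPKM in RSCs (4.50, SE 0.31). Ctsa, a lysosomal carboxypeptidase that can inactivate endothelin, rose from 55.1 ± 9.93 to 488 ± 46.6 FPKM (SD, n = 3). Kel, the Kell blood group protein of red cells, which can cut the Edn3 precursor, was 13.1, 7.86 and 20.4 FPKM in SCPs and listed at 0 in all RSC samples. Cma1, the mast cell chymase, rose by 2.93 (SE 0.19). Furin, the convertase held to act on the Edn1 precursor, did not pass the test, with 71.3 ± 5.14 FPKM in SCPs and 80.9 ± 4.80 FPKM in RSCs (SD, n = 3).

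Of 21 genes of G proteins and phospholipase C signalling, 20 were tested, 11 were higher in RSCs and 2 in SCPs. Gnaq and Gna11, the G protein subunits through which endothelin receptors drive phospholipase C, did not pass the test, with differences of -0.16 (SE 0.19) and 0.36 (SE 0.16). Gna15, a related subunit of blood cells, rose from 0.645 ± 0.614 to 19.7 ± 5.12 FPKM (SD, n = 3). The protein kinase C gene Prkca rose from 4.99 ± 1.20 to 49.1 ± 5.13 FPKM, whereas Prkce fell from 4.56 ± 0.516 to 1.19 ± 0.234 FPKM (SD, n = 3). Gnas, the stimulatory subunit, fell by 0.73 (SE 0.082) and Prkcd rose by 1.82 (SE 0.16).

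All 12 genes of receptor desensitisation were tested, of which 6 were higher in RSCs and 2 in SCPs. Rgs16, which shortens the signal of G proteins, was 8.11, 3.78 and 15.7 FPKM in SCPs and 136, 287 and 337 FPKM in RSCs (4.72, SE 0.52). Rgs5, also a marker of pericytes, rose from 6.75 ± 2.81 to 84.5 ± 12.2 FPKM (SD, n = 3). Its named sum was 1.52, 3.30 and 0 FPKM in SCPs and 0 in all RSC samples, so the rise lay in unnamed transcripts. Grk5, a receptor kinase, fell by 0.91 (SE 0.11) and Rgs3 fell by 0.54 (SE 0.095). The beta-arrestin gene Arrb2 rose by 1.09 (SE 0.13).

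Of 13 genes of contraction and calcium entry, all tested, 5 were higher in RSCs and 2 in SCPs, none over 4-fold. The calcium channel gene Trpc6 rose by 1.71 (SE 0.22). Ptk2b, a calcium-dependent kinase, rose by 1.72 (SE 0.17) and Rhoa, a small GTPase of the cytoskeleton, rose by 0.55 (SE 0.093). Arhgef11, an activator of Rhoa, fell by 0.55 (SE 0.14) and was not called with median-of-ratios scaling (-0.30). The myosin kinase gene Mylk did not pass the test (0.03, SE 0.32).

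Of 11 neural crest partners of Edn3 and Ednrb, 9 were tested, and 3 were called in each direction. Sox10, the transcription factor of the glial and melanocyte lineages, was 179, 175 and 181 FPKM in SCPs and 149, 143 and 143 FPKM in RSCs. It thus fell by 0.30 (SE 0.059), about as much as the median of all genes, and with median-of-ratios scaling of the named sums it was not called. Mitf, the melanocyte regulator, rose by 1.75 (SE 0.19) and Kit, the receptor for stem cell factor, by 1.13 (SE 0.18). Pax3, a neural crest transcription factor, was 6.21, 1.34 and 1.58 FPKM in SCPs and at most 0.0589 FPKM in RSCs (-1.79, SE 0.44). Nrtn, a ligand of the Ret pathway, fell by 1.60 (SE 0.41). Zeb2, mutated like Ednrb in human disease of the enteric neurons, did not pass the test (0.04, SE 0.086).

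**Figure D4:**
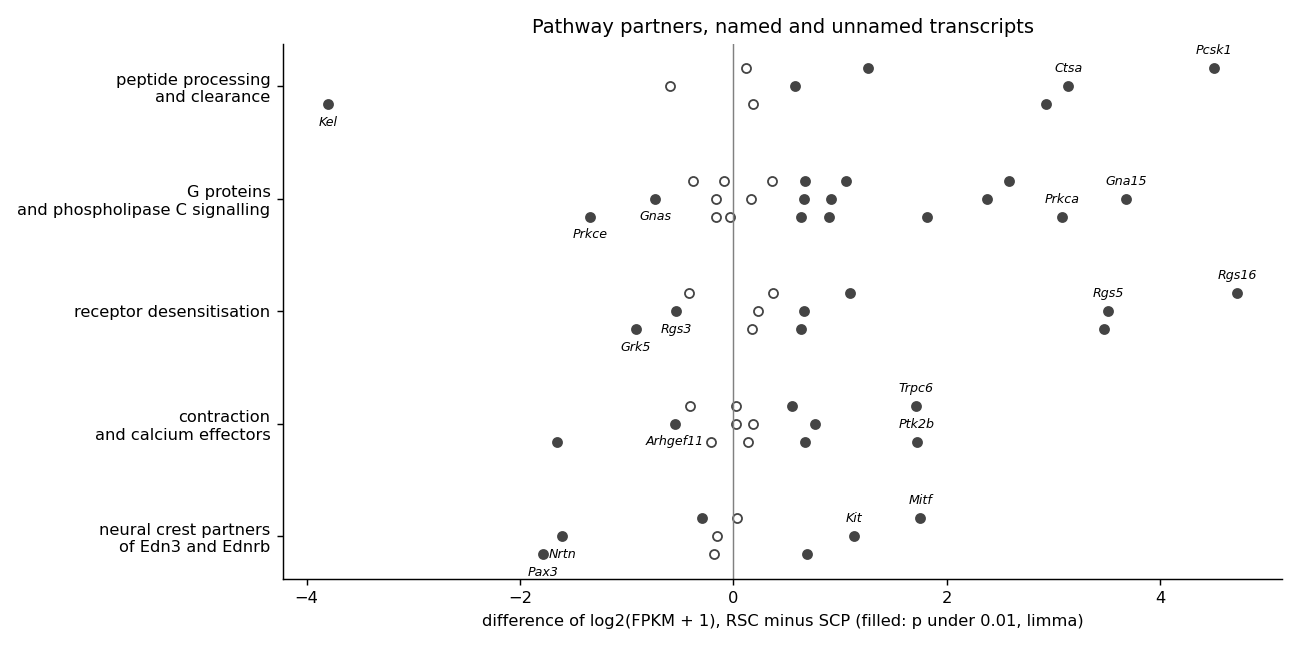
Difference of log2(FPKM + 1), RSC minus SCP, of each tested partner gene on locus totals, by list, 1 point a gene. Filled points have p under 0.01 in limma, and names mark genes among the largest called changes of each list. Of 63 points, 30 are filled to the right of 0 and 10 to the left.

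The cells were checked with marker genes of 8 cell types, summed over each list in FPKM. Markers of the Schwann lineage were present in both groups, with 815 to 926 FPKM in SCPs and 3219 to 3884 FPKM in RSCs. Of the 12 tested, 7 were higher in RSCs and 4 in SCPs. Markers of leukocytes summed to 23.6 to 52.6 FPKM in SCPs and 2354 to 2845 FPKM in RSCs, and all 10 tested were higher in RSCs. Those of nerve fibroblasts summed to 849 to 1193 FPKM and 7037 to 8138 FPKM, and 8 of 10 were higher in RSCs. Fbln1 was higher in SCPs, with a difference of -1.92, and Pdgfra did not pass the test (0.26). The Schwann lineage, leukocyte and fibroblast sums thus all moved with the group as Edn3, Ece1, Ece2, Pcsk1, Ctsa, Gna15 and Cma1 did. The part of these cells in those results was not tested.

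Lists of the vessel wall moved less. Endothelial sums were 97.1 to 174 FPKM in SCPs and 173 to 197 FPKM in RSCs, with 4 of 12 genes called, 3 higher in RSCs and 1 in SCPs. The 3 were Cldn5, Flt1 and Esam, with differences of 1.88, 1.51 and 1.37, and the 1 was Plvap, with -1.27. The endothelial cadherin Cdh5 was 16.2 ± 3.67 and 15.3 ± 3.49 FPKM (SD, n = 3), and was among those that did not pass the test. The part of endothelial cells in the Edn1 result was not tested. Mural sums were 329 to 671 FPKM and 557 to 617 FPKM and overlapped, with 4 of 12 genes higher in RSCs and 2 in SCPs. The 4 were Rgs5, Cspg4, Myh11 and Des, with differences of 3.51, 2.29, 1.41 and 1.13, and the 2 were Pdgfrb and Notch3, with -0.60 and -1.49. The part of mural cells in the Ednra result was not tested.

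Melanocyte sums were 17.5 to 42.1 FPKM in SCPs and 6.97 to 9.44 FPKM in RSCs. Of the 4 melanocyte genes tested, all were called, 2 higher in SCPs (Dct and Pmel) and 2 higher in RSCs (Mitf and Tyrp1). Dct, an enzyme of pigment synthesis, was 9.87, 34.5 and 36.3 FPKM in SCPs and 0.297, 0 and 0 FPKM in RSCs, whereas Mlana was listed at 0 in all samples and Tyr was at most 0.0642 FPKM. Tyrp1, another pigment enzyme, was 0, 0.0621 and 0.216 FPKM in SCPs and 3.19, 1.07 and 2.35 FPKM in RSCs. Neuron sums were 48.5 to 73.4 FPKM in SCPs and 27.4 to 35.5 FPKM in RSCs. Of the 6 neuron genes tested, 3 were higher in SCPs (Isl1, Elavl4 and Prph) and 0 in RSCs. Isl1 and Elavl4 were listed at 0 in all RSC samples. Tubb3, Nefm and Nefl did not pass the test, with differences of -0.32, -0.22 and 0.41. Mesothelial and epithelial sums were 11.4 to 20.5 FPKM and 10.9 to 12.0 FPKM and overlapped. The part of neurons and melanocytes in the Ednrb result was not tested.

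**Figure D5:**
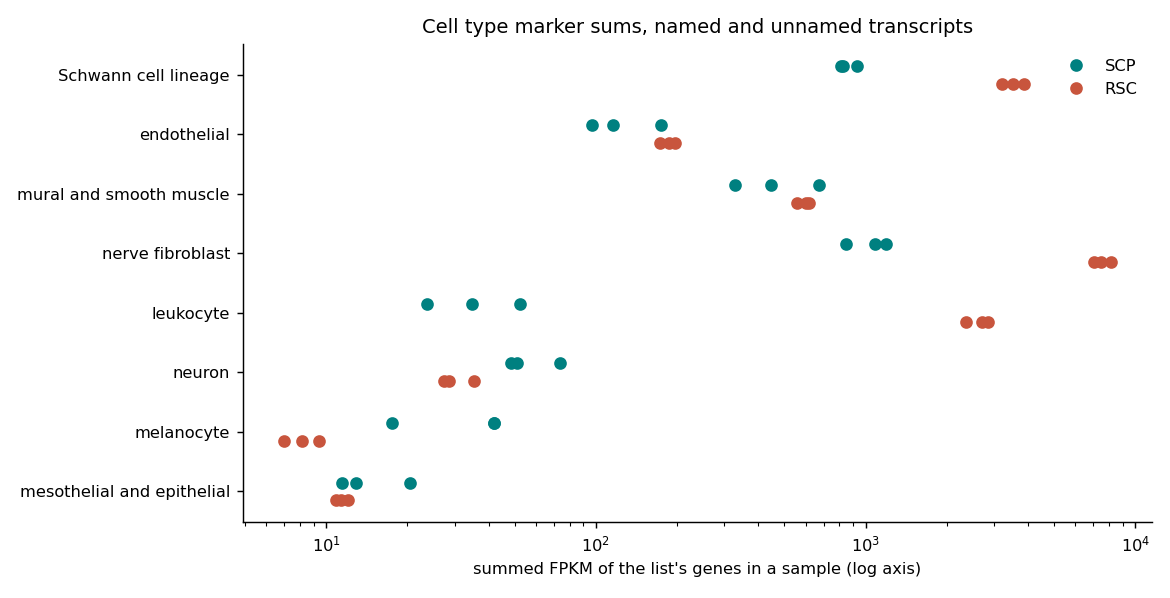
Summed FPKM of the marker genes of 8 cell types in each sample on locus totals (log axis), with SCP samples and RSC samples in different colours. Leukocyte sums are at most 52.6 FPKM in SCPs and at least 2354 FPKM in RSCs, while mural, endothelial and epithelial sums overlap between the groups.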

How the data were processed

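The authors made stranded libraries of mRNA from 3 SCP and 3 RSC samples and sequenced both ends. Per the submitters' processing notes, FastQC 0.11.2, TopHat2 2.1.0, Cufflinks 2.2.1 and rn6 were used. The authors deposited, per sample, a Cufflinks table of transcripts in FPKM, with the coverage signal per transcript. How strand was handled is not given in the sources used here.

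The members and gene lists were chosen with earlier results of these data known. Transcripts whose gene names had become dates (77 per table) were left out. FPKM were summed by symbol (named sums, the prescribed measure). Unnamed transcripts were added to the gene of the same locus that they overlap most (locus totals, an alternative listed at the outset). Leading with locus totals was decided after seeing the data, as were the further alternatives run on them. Genes averaging 1 FPKM or more over the samples were compared with limma 3.58.1 (R 4.3.3) on log2(FPKM + 1) with a variance trend, with Benjamini-Hochberg adjustment over all genes tested, a scale that understates changes of low genes. The fit was tested on simulated named sums with planted changes in few genes, all of higher level, a setting unlike these data. Ratios were compared by exact permutation tests. In the text, SE and differences are on the log2 scale, and genes are named by fixed rules: the members, the 2 largest called changes per list and direction, the 2 nearest profiles per member, and markers. Some genes these rules name are not reported here. Furin, Gnaq, Gna11, Mylk and Zeb2 were added for their known roles after their values were seen. Depth in reads is not in the tables. Relative depth from coverage ran from 0.878 to 1 in SCPs and from 0.789 to 0.841 in RSCs.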

Additional observations from a re-analysis of the deposited data

How the results depend on the processing

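On locus totals, Edn3, Ednra, Ednrb and Ece1 kept their direction and p under 0.01 in all 13 alternatives run, and Ece2 in all 12 that kept it (a filter at 5 FPKM removed it). Their differences ran from 2.22 to 2.61 for Edn3, from -3.69 to -2.77 for Ednra, from -4.17 to -3.82 for Ednrb, from 0.79 to 1.10 for Ece1 and from 2.30 to 4.79 for Ece2. Edn1 passed in none, and without RSC replicate 2 it turned to -0.15.

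Named sums depended on the transcripts counted. Adding the unnamed ones raised the called members from 2 to 5, the called genes from 5268 to 8038 and the called partners from 17 to 40, moved the ligand total from -0.78 to 1.95, Edn1 to 0.30 and Ece1 from -0.10 to 0.84. The cause was not tested. A filter at 5 FPKM left 1 called member and 11 called partners, with fewer genes tested. Leaving out single samples moved the called members between 2 and 3, the receptor balance on named sums between -0.70 and 2.34 and the ligand total between -1.22 and 0.084. Edn1 was 0.084 without RSC replicate 2. Ece1 turned to 0.023 with median-of-ratios scaling, to 0.48 with the highest transcript, to 0.64 and 0.53 without SCP replicates 2 and 3, and to 1.22 without RSC replicate 2, and single samples left out moved it between -1.46 and 1.22.

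Median-of-ratios scaling moved the median of all genes from -0.24 to near 0 on locus totals, and the share of called genes higher in RSCs from 40.4% to 53.5% (from 44.6% to 55.7% on named sums). The deviations of samples with the same number had correlations of 0.0435, -0.00491 and 0.0259 on named sums, all under 0.1. Whether samples with the same number were handled together was not tested. On locus totals each sample correlated best with its own number, at 0.0623, 0.0341 and 0.0502. With a replicate block 2 members and 4275 genes were called on named sums, and 5 members and 7352 genes on locus totals. Arhgef11, Nrtn, Pax3, Rgs3, Prkcd and Sox10 lost p under 0.01 in at least 1 alternative. Levels near 1 FPKM, such as Ednra in RSCs, and values listed at 0 are limited by depth.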
